A study of Mus musculus with 20 samples.

Results

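The liver makes most of the proteins that clot blood, keep clots in check and form the complement system. The transcripts of 41 such proteins were followed in mouse livers after Cas9 was directed to Hira, the gene of a chaperone that deposits histone H3.3. The 41 genes were taken by name from a gene count table with 55421 identifiers, all 41 were found, and all were among the 22867 genes that were tested. They comprise 22 genes of the coagulation side (3 fibrinogen chains, 8 coagulation factors, 2 genes of the contact system, 5 anticoagulants, and 4 genes of fibrinolysis and its inhibitors) and 19 complement genes (6 of initiation, 4 of the convertases, 6 of the terminal pathway and 3 inhibitors).

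Polyadenylated RNA was sequenced from whole livers of 20 C57BL/6 mice in 4 groups of 5. Every animal was wildtype, labelled female, and was injected at 6 months of age with an AAV8 vector in which the Tbg promoter, active in hepatocytes, drives the Cas9 of Staphylococcus aureus. The vector carried a guide RNA to Hira (HIRA livers) or to Rosa26, a locus commonly used as a neutral site (Rosa26 livers, the controls), so both arms carried the vector and the nuclease. Livers were taken 3 weeks or 6 months after injection, which gave the groups Rosa26 3 weeks, HIRA 3 weeks, Rosa26 6 months and HIRA 6 months. The study's main text calls the mice of this time course male and its figure legend calls them female. Cells other than hepatocytes were not targeted by the promoter and are part of each library.

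Coagulation runs as a cascade of proteases that ends with thrombin, which turns fibrinogen into fibrin, while antithrombin, protein C and others restrain it, and plasmin dissolves the clot. Complement is a parallel cascade in which recognition proteins and their proteases assemble C3 and C5 convertases, and C5b to C9 then form a pore in the target membrane. Hepatocytes are the main source of nearly all of these proteins, and some of them, fibrinogen foremost, are acute phase proteins whose synthesis rises with inflammation through interleukin 6 and the factors STAT3 and C/EBP.

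Libraries held 19916430 to 24079736 counts. Levels within a gene are given as CPM, a gene's counts relative to library size as scaled with the TMM factors of edgeR. Adjusted p-values are from edgeR's quasi-likelihood test with Benjamini-Hochberg adjustment over all genes tested, and a gene is said to have passed at an adjusted p under 0.05. Hira itself stood at 6.49, 8.54, 7.30, 6.04 and 6.33 CPM in Rosa26 livers 1 to 5 at 3 weeks and at 5.81, 5.95, 4.36, 4.55 and 4.15 CPM in HIRA livers, without overlap (log2 fold change -0.48 ± 0.14, SE, adjusted p = 0.197). At 6 months the values were 5.63, 7.32, 6.07, 6.07 and 4.82 CPM against 5.32, 4.96, 5.64, 5.48 and 6.51 CPM, with overlap (-0.10 ± 0.14, adjusted p = 0.794). Thus the transcript of the target did not pass the test at either time, and a guide that cuts the coding sequence need not remove the transcript. The study reported, by western blot, that HIRA protein was lost with this approach compared with Rosa26 controls. Of 10 hepatocyte markers 9 were in the table, none was at 0 in a whole group, and their sum was 89064 to 170330 CPM over the 20 libraries.

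Libraries that stood apart are named here because results below rest on them. HIRA liver 5 at 6 months went against its female label: it held 9 counts of Xist, where the other libraries held 6286 to 8436, and 2041 counts of 4 Y-linked genes, where the others held 0 to 13. Rosa26 liver 2 at 3 weeks had the highest level of 20 acute phase genes outside the 41, at 54587 CPM in sum against 15456 to 24415 CPM in the other Rosa26 livers of that time, and it was the highest of all libraries for 17 of the 41 genes. In Rosa26 livers 2, 4 and 5 at 6 months the same sum was 39520, 35986 and 34846 CPM, and in livers 1 and 3 it was 17761 and 22961 CPM. It was 14781 to 18744 CPM in HIRA livers at 3 weeks and 17449 to 19824 CPM at 6 months. HIRA liver 3 at 6 months was lowest for 17 of the 41 genes. Many of the values below are also given without Rosa26 liver 2 at 3 weeks or without HIRA liver 5 at 6 months.

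The 3 fibrinogen genes lie side by side on chromosome 3, and Mbl1 had the lowest adjusted p of the 41 genes between guides at 3 weeks and on average over both times. Because fibrinogen is the textbook case of an interleukin 6 response in liver, the bases upstream of these 4 start sites are shown from the RefSeq promoter table (GRCm38.p6), 5′ to 3′ on the strand of the gene, with 4 motifs searched on both strands and matches in capitals. The motifs were CTGGGAA (the core of the interleukin 6 response element), GTTAAT (an HNF1 half-site), TTGCNNAA (C/EBP) and CAAAGNNCA (HNF4), and N is any base. The window was chr3:83025903-83026075 on the plus strand for Fga (173 bases, since the 77 bases after the annotated gene start were left out), chr3:83049864-83050113 on the minus strand for Fgb, chr3:83007474-83007723 on the plus strand for Fgg and chr14:41151206-41151455 on the plus strand for Mbl1.
Fga: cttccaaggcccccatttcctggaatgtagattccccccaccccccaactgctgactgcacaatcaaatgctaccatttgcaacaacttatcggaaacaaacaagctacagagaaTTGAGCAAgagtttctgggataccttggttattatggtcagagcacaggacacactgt
Fgb: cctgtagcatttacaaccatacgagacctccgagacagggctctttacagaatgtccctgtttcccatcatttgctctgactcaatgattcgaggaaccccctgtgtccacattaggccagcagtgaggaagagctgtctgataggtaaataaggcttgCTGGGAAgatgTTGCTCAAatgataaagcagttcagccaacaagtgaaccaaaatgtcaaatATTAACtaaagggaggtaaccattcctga
Fgg: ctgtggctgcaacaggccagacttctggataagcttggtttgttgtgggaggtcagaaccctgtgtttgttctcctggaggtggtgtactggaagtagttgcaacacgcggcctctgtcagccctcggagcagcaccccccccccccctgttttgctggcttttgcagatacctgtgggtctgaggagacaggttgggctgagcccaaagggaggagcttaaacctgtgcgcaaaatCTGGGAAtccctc
Mbl1: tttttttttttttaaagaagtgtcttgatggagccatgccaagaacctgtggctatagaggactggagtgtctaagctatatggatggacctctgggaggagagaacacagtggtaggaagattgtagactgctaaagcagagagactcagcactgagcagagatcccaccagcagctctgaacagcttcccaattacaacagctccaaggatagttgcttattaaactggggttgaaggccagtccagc

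Counted back from the RefSeq start, Fgb held the interleukin 6 core 91 to 85 bases upstream, a C/EBP match 80 to 73 bases upstream and an HNF1 half-site 29 to 24 bases upstream. Fgg held the interleukin 6 core 13 to 7 bases upstream. Fga, read without the 77 bases nearest the RefSeq start, held only a C/EBP match, 135 to 128 bases upstream. The Mbl1 window held none of the 4 motifs. Over 32851 RefSeq promoters with 250 upstream bases, CTGGGAA was found in 9.10%, GTTAAT in 6.43%, TTGCNNAA in 9.56% and CAAAGNNCA in 5.49%. Of 34 promoters that matched 32 of the 41 genes, CTGGGAA was in 5, GTTAAT in 9, TTGCNNAA in 9 and CAAAGNNCA in 5. A match is a string of letters and was not tested for binding.

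Between genes, levels are compared per length as the deposited FPKM (fragments scaled to transcript length and library size). The median FPKM over the 20 libraries ran from 4.48 for C6, the first protein to join C5b, to 2839 for Serpinc1, which encodes antithrombin, the main inhibitor of thrombin. After Serpinc1 came C3, the central complement protein, at 2786, then Fga at 2340, Fgg at 2068, Vtn (vitronectin, which blocks the terminal complex) at 1762, Kng1 (kininogen, the source of bradykinin) at 1443, F2 (prothrombin) at 1047, Fgb at 1045, Plg (plasminogen) at 1027 and Cfb (complement factor B) at 775. Of the 40 pairs of neighbours in this order, 18 overlapped in all 4 groups and 22 were separated in 1 to 3 groups. Serpinc1 was above C3 in 12 of 20 libraries and F2 above Fgb in 10 of 20, and neither pair was separated in any group. Vtn was above Kng1, and Kng1 above F2, in all 20 libraries, and their ranges were apart in 2 and 3 of the 4 groups. The lowest levels after C6 were Pros1 (protein S, cofactor of protein C) at 15.0, F11 at 17.2 and Masp1 (a protease of the lectin pathway) at 27.8 FPKM, and 28 of 41 genes had a median of at least 100 FPKM.

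The order between genes depends on how length was taken. Counts scaled to the length of the merged exons and to library size (RPKM) put 24 genes at 100 or more, and the orders of the 41 genes by FPKM and by RPKM had a Spearman coefficient of 0.918, a description over genes. Serpinc1 stood at 302 and Cfb at 67.1 on the RPKM scale. Cfb shares 79.5% of its exon bases, and C2 42.8%, with the read-through gene Gm20547 on the same strand, which held 0 counts.

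**Figure D1:**
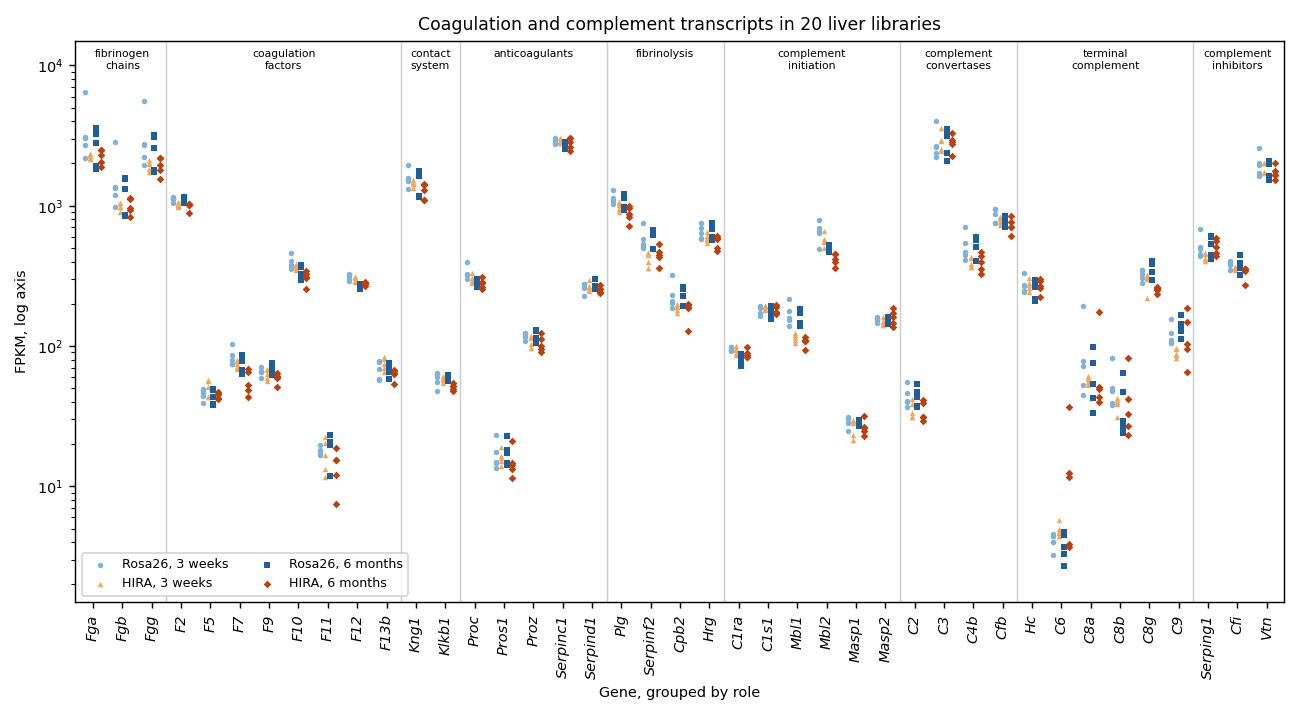
Deposited FPKM (log axis) of the 41 genes in each of the 20 liver libraries, grouped by role. Most genes lie above 100 FPKM, Serpinc1 and C3 are at the top with medians of 2839 and 2786, and C6 is at the bottom with a median of 4.48 and a single library at 36.5.

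At 3 weeks, 0 of the 41 genes passed the test between HIRA and Rosa26 livers, where 45 of all genes did (0.197%). At an unadjusted p under 0.05, 9 were lower and 0 higher, beside 4.50% of all genes lower and 4.37% higher, and without Rosa26 liver 2 there were 4 lower. The fold change was below 0 for 37 of the 41 (52.6% of the 12903 genes whose mean was 1 CPM or more, and 61.2% of the 1370 at 100 CPM or more, a set that holds 37 of the 41). It ranged from -0.69 to 0.26 on the log2 scale and was within 0.5 of 0 for 36 genes. The median was -0.16, beside -0.01 over the genes at 1 CPM or more and -0.05 over those at 100 CPM or more. In 3 genes, Mbl1, Serpinf2 and C9, the 5 HIRA livers all lay below the 5 Rosa26 livers (1.24% of all genes). Whether fewer hepatocytes or less RNA per hepatocyte lay behind a lower level cannot be told apart in these bulk libraries.

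At 6 months, C6 was higher (0.695% of all genes passed upward), and C8g and Mbl1 were lower (0.612% downward). Only C6 also exceeded an absolute log2 fold change of 1, the study's rule, which 0.332% of all genes met. At an unadjusted p under 0.05, 17 genes were lower and 1 was higher, beside 6.85% of all genes lower and 8.68% higher. The fold change was below 0 for 34 of 41 (45.8% of genes at 1 CPM or more, 64.5% at 100 CPM or more), with a median of -0.23 beside 0.02 and -0.07 in those sets. For C8g and Mbl2 the 5 HIRA livers lay below all Rosa26 livers (1.74% of all genes).

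Averaged over both times, 10 HIRA against 10 Rosa26 livers, 4 genes passed and all were lower: Mbl1, Serpinf2, C2 and C8g (1.37% of all genes passed downward and 1.48% upward). Here 38 of 41 fold changes were below 0 (48.3% at 1 CPM or more, 64.7% at 100 CPM or more), the median was -0.19, beside 0.01 and -0.06, and the range was -0.58 to 1.07. At an unadjusted p under 0.05, 24 were lower and 1 higher (7.94% and 8.62% of all genes). The average uses the same libraries as the comparisons at each time and is no separate evidence. DESeq2, which made more calls over all genes, called 2 of the 41 at 3 weeks (1.56% of the genes it adjusted), 8 at 6 months (6.22%) and 14 on average (8.55%).

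**Figure D2:**
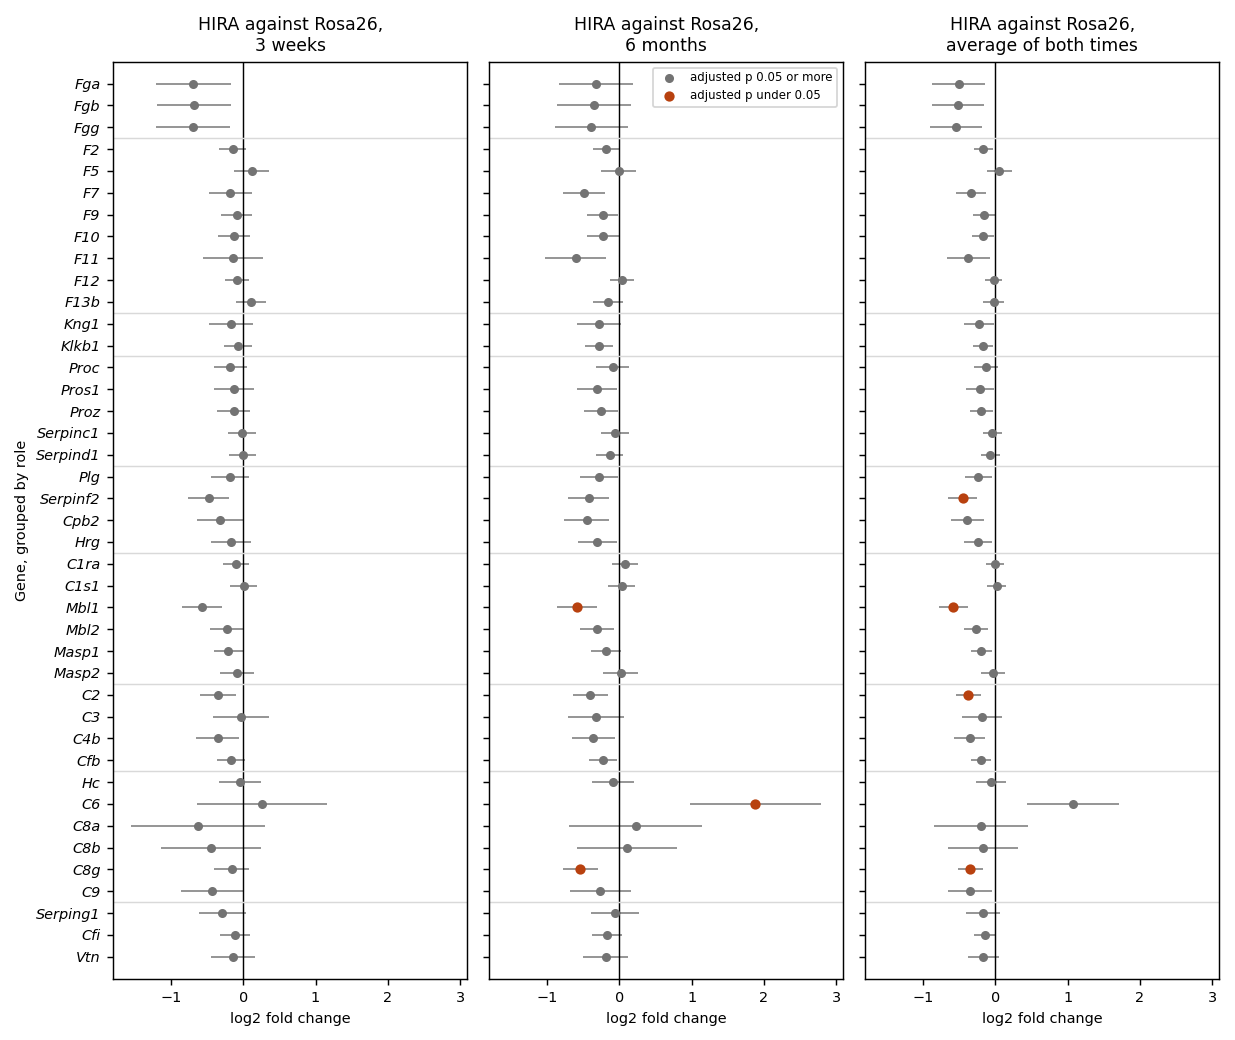
Log2 fold change of HIRA against Rosa26 livers (x axis) with its 95% confidence interval for the 41 genes at 3 weeks, at 6 months and averaged over both times, with orange points for an adjusted p under 0.05 in edgeR. Most points lie to the left of 0, and C6 at 6 months, at 1.88, lies far to the right with the widest intervals beside those of C8a and C8b.

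The 3 fibrinogen genes did not pass at either time and varied together from library to library. Fga, the alpha chain, was counted at 6569, 16071, 7376, 6863 and 5239 CPM in Rosa26 livers 1 to 5 at 3 weeks and at 5565, 4787, 5057, 5272 and 5375 CPM in HIRA livers. Rosa26 liver 2 was above every other library, and Rosa26 liver 5 lay within the HIRA range, so the groups overlapped. The fold changes of Fga, Fgb (beta chain) and Fgg (gamma chain) were -0.69 ± 0.25, -0.68 ± 0.25 and -0.69 ± 0.24, with adjusted p of 0.361, 0.374 and 0.342. Without Rosa26 liver 2 they were -0.32, -0.32 and -0.34.

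At 6 months Fgg stood at 3378, 6016, 3019, 6166 and 4981 CPM in Rosa26 livers and at 3514, 4334, 2968, 3907 and 3269 CPM in HIRA livers. Rosa26 livers 2, 4 and 5, the same that were high in acute phase transcripts, were above every HIRA liver, and Rosa26 livers 1 and 3 were not. The fold changes were -0.32, -0.35 and -0.39 for Fga, Fgb and Fgg, and averaged over both times -0.51, -0.51 and -0.54, with adjusted p of 0.131, 0.119 and 0.0989. Without Rosa26 liver 2 at 3 weeks the averages were -0.32, -0.33 and -0.36, with adjusted p of 0.240, 0.219 and 0.174. All 3 passed on average with DESeq2 (adjusted p 0.0439, 0.0383 and 0.0263).

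The chains kept nearly constant proportions in the 20 libraries: Fga to Fgb was 1.12 to 1.27, Fga to Fgg 1.32 to 1.53 and Fgb to Fgg 1.13 to 1.32 as ratios of CPM. Each pair had a Pearson coefficient of 0.99 across the 20 libraries. These points share libraries and scaling factors, so the coefficients are a description. The 3 genes lie within 83007724 to 83049863 of chromosome 3 (GRCm38), with gaps of 11026 bases between Fgg and Fga and 6513 bases between Fga and Fgb. Together the chains took 2.07% ± 1.01 of all counts in Rosa26 livers at 3 weeks (SD, n = 5), 1.32% ± 0.06 in HIRA livers at 3 weeks, 1.65% ± 0.47 in Rosa26 livers at 6 months and 1.33% ± 0.16 in HIRA livers at 6 months. Without liver 2 the share in Rosa26 livers at 3 weeks was 1.63% ± 0.24 (n = 4).

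Of the 8 coagulation factors, 0 passed in edgeR at either time or on average, and at an unadjusted p under 0.05 there were 0, 4 and 5, all lower, where 4.50%, 6.85% and 7.94% of all genes were lower. F7, the protease that starts the extrinsic pathway with tissue factor, was the nearest. Later, at 6 months, it was at 147, 186, 126, 204 and 178 CPM in Rosa26 livers and at 108, 150, 91.5, 142 and 107 CPM in HIRA livers, with 3 HIRA livers below every Rosa26 liver (-0.49 ± 0.14, adjusted p = 0.0874). On average F7 was at -0.33 (adjusted p = 0.0759), which fell to 0.0354 without Rosa26 liver 3 and to 0.0419 without HIRA liver 2, both at 6 months.

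F11, a protease of the intrinsic pathway, was at 33.5, 68.5, 53.1, 60.6 and 67.1 CPM in Rosa26 livers at 6 months and at 20.5, 42.3, 43.9, 40.5 and 39.0 CPM in HIRA livers. All but Rosa26 liver 1 were above the HIRA livers (-0.60 ± 0.20, adjusted p = 0.142). At 3 weeks the value was -0.14, with HIRA livers spread from 32.0 to 62.0 CPM around the Rosa26 range of 44.8 to 56.1 CPM. F2 varied little, from 2033 to 2732 CPM over all libraries, with -0.15 ± 0.09 at 3 weeks and -0.18 ± 0.09 at 6 months. F12, which starts the contact pathway, had 95% intervals of -0.25 to 0.08 at 3 weeks and -0.13 to 0.20 at 6 months. F5 (the cofactor of factor Xa), F9 (the protease that hemophilia B lacks), F10 (the protease that makes thrombin) and F13b (the carrier chain of the enzyme that crosslinks fibrin) had average fold changes of 0.05, -0.16, -0.17 and -0.02.

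F7, F10 and Proz are neighbours on chromosome 8, with gaps of 1498 bases between F7 and F10 and 4237 bases between F10 and Proz. Across the 20 libraries F7 and F10 had a coefficient of 0.94, and F10 and Proz, the protein Z gene, 0.70. F11 and Klkb1, 4657 bases apart on the same chromosome, had 0.30. This was the lowest of 9 neighbouring pairs among the 41 genes, and the other 8 had coefficients of 0.62 to 0.99.

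In the contact system, Kng1 and Klkb1 (plasma prekallikrein) did not pass. Klkb1 was at -0.28 ± 0.09 at 6 months (adjusted p = 0.139), and without HIRA liver 5 of that time at -0.36 (adjusted p = 0.0392). Kng1 was at -0.17 ± 0.14 at 3 weeks and -0.28 ± 0.14 at 6 months, and without Rosa26 liver 2 at 3 weeks the first value was -0.07. Klkb1 shares 43.2% of its exon bases with Gm45753, which held 14 counts over all libraries. Reads of Kng1 may be split with its near copy Kng2, which held 13.3% as many counts.

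None of the 5 anticoagulants passed. Serpinc1 stood at 2564 to 2762 CPM in Rosa26 and 2432 to 2794 CPM in HIRA livers at 3 weeks, and at 2126 to 2712 and 2178 to 2768 CPM at 6 months. Its average fold change was -0.04 with a 95% interval of -0.17 to 0.09. Serpind1 (heparin cofactor II) had -0.07 with an interval of -0.20 to 0.06. Proc (protein C), Pros1 and Proz were at -0.13, -0.21 and -0.19 on average, with adjusted p of 0.420, 0.247 and 0.213. Serpinc1 shares 34.4% of its exon bases with Zbtb37 on the other strand, which held 0.557% as many counts.

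Among the 4 genes of fibrinolysis and its inhibitors, Serpinf2 passed on average. Serpinf2 encodes alpha 2-antiplasmin, the fast inhibitor of plasmin. At 3 weeks it was at 1354, 1709, 1236, 1070 and 1099 CPM in Rosa26 livers and at 1007, 959, 810, 970 and 898 CPM in HIRA livers. All HIRA livers were below all Rosa26 livers (-0.48 ± 0.14, adjusted p = 0.191).

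At 6 months Serpinf2 was at 1087, 1346, 1009, 1491 and 1511 CPM in Rosa26 livers and at 924, 1060, 858, 1085 and 880 CPM in HIRA livers. Rosa26 liver 3 fell within the HIRA range (-0.42 ± 0.14, adjusted p = 0.127). The average was -0.45 ± 0.10 (adjusted p = 0.0116), and it passed in each of 20 fits that left out 1 library, with adjusted p from 0.00715 to 0.0291. Cpb2, a carboxypeptidase that slows fibrinolysis, was at -0.39 on average (adjusted p = 0.0542). It passed without HIRA liver 5 at 6 months (adjusted p = 0.0245), without Rosa26 liver 1 at 3 weeks (0.0480) and without Rosa26 liver 1 or 3 at 6 months (0.0450 and 0.0485).

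Plg was at -0.18 ± 0.13 at 3 weeks and -0.28 ± 0.13 at 6 months, and Hrg, a histidine-rich plasma protein that binds heparin and plasminogen, at -0.17 ± 0.13 and -0.30 ± 0.13. Neither passed. Thus all 4 genes of this group had fold changes below 0 at both times, from -0.48 to -0.17 and from -0.45 to -0.28. Without Rosa26 liver 2 the values at 3 weeks were -0.36 for Serpinf2, -0.16 for Cpb2, -0.12 for Plg and -0.10 for Hrg.

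**Figure D3:**
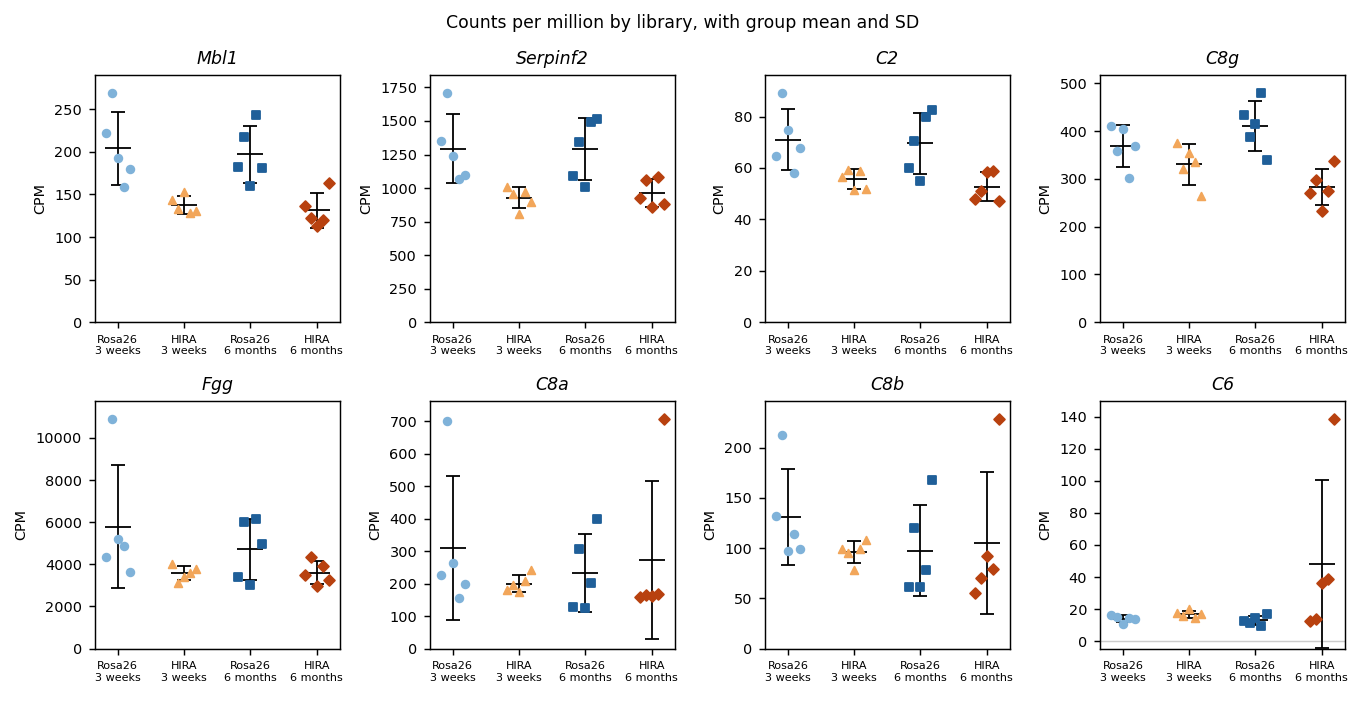
CPM of Mbl1, Serpinf2, C2, C8g, Fgg, C8a, C8b and C6 in each library by guide and time, with bars for the group mean and SD (n = 5 mice). HIRA livers lie below Rosa26 livers for Mbl1 and Serpinf2 at 3 weeks, 1 Rosa26 liver at 3 weeks stands out for Fgg, and HIRA liver 5 at 6 months stands out for C6, C8a and C8b.

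Among the 6 genes of complement initiation, Mbl1 was lower in HIRA livers. Mbl1 encodes mannose-binding lectin A, which recognises microbial sugars and starts the lectin pathway. At 3 weeks it was at 222, 269, 192, 159 and 180 CPM in Rosa26 livers and at 144, 133, 152, 128 and 130 CPM in HIRA livers. There was no overlap, with a fold change of -0.57 ± 0.13 (adjusted p = 0.0851). At 6 months it was at 182, 217, 160, 243 and 181 CPM in Rosa26 livers and at 136, 123, 113, 120 and 164 CPM in HIRA livers. HIRA liver 5 was above the lowest Rosa26 liver, and the other 4 were below them all (-0.59 ± 0.14, adjusted p = 0.0360).

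On average Mbl1 was at -0.58 ± 0.10 (adjusted p = 0.00277), and it passed in all 30 alternative fits, the 20 that left out 1 library among them. The calls at single times were less steady. At 3 weeks Mbl1 passed without HIRA liver 5 of 6 months (adjusted p = 0.0451) and was at -0.45 without Rosa26 liver 2 (adjusted p = 0.258). At 6 months it passed in 13 of 20 fits that left out 1 library. It was not called without Rosa26 livers 1, 2 or 4 of that time (adjusted p 0.0590, 0.0674 and 0.119) or without HIRA livers 1, 2, 3 or 4 (0.0633, 0.0627, 0.0743 and 0.0536).

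Mbl2 encodes mannose-binding lectin C, and neither guide comparison passed. It was at 938, 567, 804, 699 and 753 CPM in Rosa26 livers at 3 weeks and at 638, 549, 744, 618 and 677 CPM in HIRA livers, with overlap (-0.22, adjusted p = 0.593). Its values at 6 months were 620, 568, 510, 625 and 559 CPM against 499, 481, 446, 449 and 458 CPM, without overlap (-0.30, adjusted p = 0.181). Averaged over both times Mbl2 was at -0.26 (adjusted p = 0.0771), and without Rosa26 liver 2 at 3 weeks at -0.31 (adjusted p = 0.0239).

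The proteases of this step did not pass. C1ra and C1s1, which cut within the C1 complex, were at -0.01 and 0.02 on average, with intervals of -0.14 to 0.12 and -0.11 to 0.15. Masp1 and Masp2, the proteases that travel with the lectins, were at -0.19 and -0.03. Masp2 shares 54.9% of its exon bases with Tardbp on the other strand, which held 41607 counts beside 69218 for Masp2. Whether the counting used strand was not given in the sources used here, so the level of Masp2 is uncertain.

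Of the 4 convertase genes, C2 passed on average. C2 supplies the protease of the classical and lectin C3 convertase. At 3 weeks it was at 64.8, 89.2, 74.8, 57.9 and 67.9 CPM in Rosa26 livers and at 56.5, 59.4, 51.4, 59.0 and 51.9 CPM in HIRA livers. Only Rosa26 liver 4 fell within the HIRA range (-0.35 ± 0.12, adjusted p = 0.303). After 6 months the values were 60.1, 70.4, 55.0, 79.8 and 82.4 CPM against 48.1, 51.0, 58.3, 58.9 and 47.0 CPM, where Rosa26 liver 3 was below HIRA livers 3 and 4 (-0.40 ± 0.12, adjusted p = 0.0927).

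The average of C2 was -0.38 ± 0.08 (adjusted p = 0.0155), and it passed in each of 20 fits that left out 1 library. On log2(FPKM + 1) with limma it was at -0.31 (adjusted p = 0.0809). C4b, the other part of that convertase, was at -0.35 and -0.36 at the 2 times and -0.36 on average (adjusted p = 0.0622), and its near copy C4a held 0.453% as many counts. Without Rosa26 liver 2 at 3 weeks, C4b was at -0.22 at that time (adjusted p = 0.849) and at -0.29 on average (adjusted p = 0.112). It passed on average without Rosa26 liver 1, HIRA liver 2 or HIRA liver 4 of 6 months (adjusted p 0.0491, 0.0475 and 0.0479). C3 ran from 8473 to 19166 CPM over the libraries, with -0.04 ± 0.19 at 3 weeks (0.15 without Rosa26 liver 2) and -0.32 ± 0.19 at 6 months. Cfb, the protease of the alternative convertase, was at -0.17 ± 0.09 and -0.23 ± 0.09. Cfb and C2 lie 85 bases apart on chromosome 17 and had a coefficient of 0.73 across libraries.

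Of the 6 terminal genes, C8g was lower and C6 higher at 6 months. C8g, the gamma chain of C8, was at 411, 357, 405, 302 and 369 CPM in Rosa26 livers at 3 weeks and at 375, 322, 355, 336 and 264 CPM in HIRA livers, with overlap (-0.16 ± 0.12, adjusted p = 0.779). At 6 months it was at 434, 388, 415, 480 and 340 CPM in Rosa26 livers and at 272, 298, 233, 276 and 337 CPM in HIRA livers. HIRA liver 5 at 337 CPM lay just under Rosa26 liver 5 at 340 CPM, and the other 4 were lower (-0.54 ± 0.12, adjusted p = 0.0292).

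The average of C8g was -0.35 ± 0.08 (adjusted p = 0.0251), and 0.0577 without Rosa26 liver 4 at 6 months. At 6 months C8g passed in 15 of 20 fits that left out 1 library. It was not called without Rosa26 livers 1, 3 or 4 of that time (adjusted p 0.0704, 0.0516 and 0.0983) or HIRA livers 1 or 3 (0.0636 and 0.0599). The difference of the guide effect between the times was -0.38 ± 0.17 and did not pass (adjusted p = 0.731).

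C8a and C8b encode the other C8 chains, and neither passed. C8a was at 228, 702, 262, 157 and 200 CPM in Rosa26 livers at 3 weeks, at 180, 197, 174, 207 and 243 CPM in HIRA livers, at 128, 306, 124, 202 and 400 CPM in Rosa26 livers at 6 months and at 158, 165, 163, 168 and 707 CPM in HIRA livers. A single library was far above the others in Rosa26 at 3 weeks (liver 2) and in HIRA at 6 months (liver 5). Its fold changes were -0.63 ± 0.44 at 3 weeks and 0.23 ± 0.44 at 6 months. Without the respective library they were -0.08 and -0.51, so the sign at 6 months rested on HIRA liver 5.

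C8b was at 132, 213, 96.7, 114 and 98.9 CPM in Rosa26 livers at 3 weeks and at 98.8, 95.2, 78.1, 99.3 and 108 CPM in HIRA livers. At 6 months it was at 61.6, 120, 61.3, 78.1 and 168 CPM in Rosa26 livers and at 55.3, 70.5, 92.6, 78.8 and 228 CPM in HIRA livers. The groups overlapped at both times, and the same livers were highest in their groups as for C8a. Its fold changes were -0.45 ± 0.33 and 0.11 ± 0.33, and -0.20 and -0.39 without those libraries. C8a and C8b lie 11130 bases apart on chromosome 4 and had a coefficient of 0.91 over 20 libraries and 0.81 over 18 without those 2. C8a and C8g had 0.07.

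C6 was the only gene of the 41 that passed upward, and only at 6 months. At 3 weeks it was at 16.1, 15.2, 10.9, 14.3 and 14.0 CPM in Rosa26 livers and at 17.4, 15.5, 20.2, 14.7 and 16.7 CPM in HIRA livers (0.26 ± 0.43, adjusted p = 0.939). At 6 months it was at 12.8, 11.4, 14.3, 9.64 and 17.0 CPM against 12.8, 13.9, 36.2, 38.9 and 139 CPM. HIRA livers 3, 4 and 5 were above every Rosa26 liver, and HIRA livers 1 and 2 were within the Rosa26 range (1.88 ± 0.44, adjusted p = 0.0365).

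Without HIRA liver 5, the library that went against its sex label, C6 was at 0.96 ± 0.26 (adjusted p = 0.0572). Nor did it pass when any 1 Rosa26 liver of 6 months was left out (livers 1 to 5: adjusted p 0.0815, 0.0672, 0.0595, 0.114 and 0.0542), while its fold change stayed between 0.96 and 2.12 when 1 library was left out. The change of the guide effect between the times was 1.62 ± 0.61 (adjusted p = 0.688). The average for C6 was 1.07 ± 0.30 (adjusted p = 0.0618), and without HIRA liver 1 or 2 at 6 months it passed (adjusted p 0.0200 and 0.0226). Without HIRA liver 5 the average was 0.61 (adjusted p = 0.0558).

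Hc, which encodes complement C5, had 95% intervals of -0.33 to 0.25 at 3 weeks and -0.37 to 0.21 at 6 months. The fold changes of Hc were -0.04 and -0.08, and they were 0.07 at 3 weeks without Rosa26 liver 2 and -0.14 at 6 months without HIRA liver 5. C9, the protein that closes the pore, was at 225, 349, 260, 231 and 223 CPM in Rosa26 livers at 3 weeks and at 209, 176, 187, 201 and 183 CPM in HIRA livers, without overlap (-0.43 ± 0.20, adjusted p = 0.552). After 6 months C9 was at 238, 295, 284, 292 and 371 CPM against 126, 214, 284, 211 and 398 CPM, where HIRA liver 5 was highest of all. C9 passed on average without that library (-0.47, adjusted p = 0.0326) and not with it (-0.35, adjusted p = 0.217).

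The 3 inhibitors did not pass. Serping1 (C1 inhibitor, which also restrains the contact system) was at -0.29 ± 0.16 at 3 weeks and -0.06 ± 0.16 at 6 months, Cfi (the protease that cleaves C3b and C4b) at -0.11 ± 0.10 and -0.17 ± 0.10, and Vtn at -0.15 ± 0.15 and -0.19 ± 0.15. Their average fold changes lay between -0.18 and -0.14. Serping1 was at -0.16 and Vtn at -0.02 at 3 weeks without Rosa26 liver 2, and both were at -0.11 on average. Without HIRA liver 5, Serping1 was at -0.17 at 6 months.

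As a sum, the 41 genes took 6.42% ± 1.61 of all counts in Rosa26 livers at 3 weeks (SD, n = 5; 5.20% to 9.23%), 5.38% ± 0.10 in HIRA livers at 3 weeks (5.23% to 5.49%), 6.08% ± 1.02 in Rosa26 livers at 6 months (4.88% to 7.15%) and 5.15% ± 0.43 in HIRA livers at 6 months (4.52% to 5.65%). The groups overlapped at both times. Rosa26 livers spread more widely, and liver 2 at 3 weeks gave the highest share. Without it the Rosa26 livers of that time were at 5.71% ± 0.39 (n = 4; 5.20% to 6.14%). The convertase genes, mostly C3, took 1.54%, 1.49%, 1.70% and 1.39% of counts in the same order of groups. The first of these was 1.38% without Rosa26 liver 2, below the mean of the HIRA livers of that time, and without HIRA liver 5 the last was 1.49%.

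**Figure D4:**
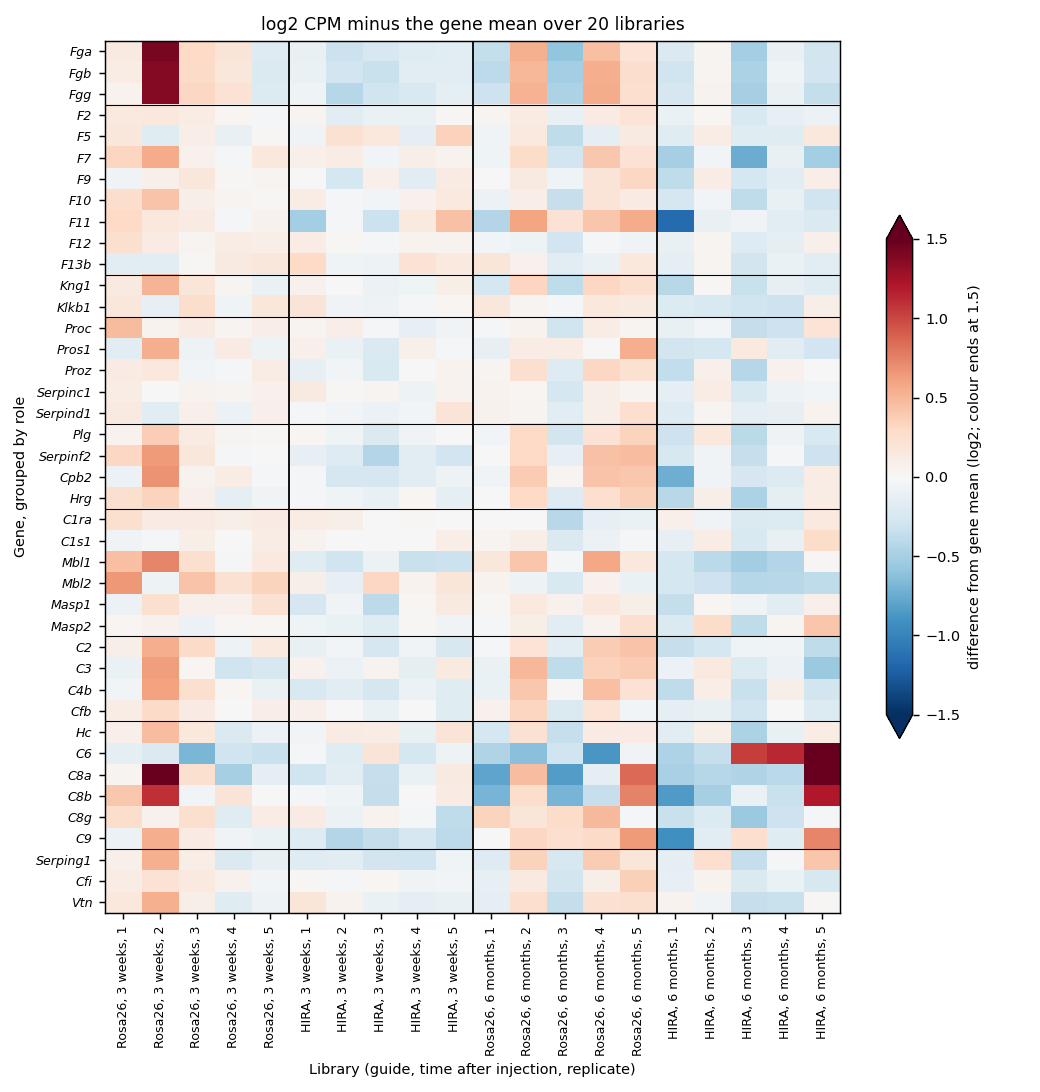
Difference of each gene's log2 CPM from its mean over the 20 libraries (colour, ending at 1.5), with genes in rows grouped by role and libraries in columns by guide, time and replicate. Rosa26 liver 2 at 3 weeks is red over most coagulation and complement rows, the HIRA columns are mostly pale or blue, and HIRA liver 5 at 6 months is red in C6, C8a and C8b.

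The guide effect did not pass a test of change between 3 weeks and 6 months for any of the 41 genes, nor for any gene in the table (0% of 22867). At an unadjusted p under 0.05, C6 was higher and C8g lower, beside 6.62% of all genes in either direction, and DESeq2 also called 0 of the 41.

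Between 3 weeks and 6 months, 0 of the 41 passed within Rosa26 livers (0.324% of all genes) and 0 within HIRA livers (0.0656%). At an unadjusted p under 0.05, Mbl2, C1ra and F12 were lower at 6 months in Rosa26 livers (6.38% of all genes lower), and Mbl2, F7, F10, F13b and Klkb1 were lower in HIRA livers (3.36%), where C6 was higher (5.58% of all genes higher). Mbl2 was at -0.38 ± 0.11 in Rosa26 livers (adjusted p = 0.130) and -0.47 ± 0.11 in HIRA livers (adjusted p = 0.120). It passed with DESeq2 in both arms (adjusted p 0.0339 and 0.00700), as did F12 in Rosa26 livers (0.0476), beside 3.22% of the genes that DESeq2 adjusted in Rosa26 and 0.885% in HIRA livers.

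F12 was at 780, 718, 677, 716 and 705 CPM in Rosa26 livers at 3 weeks and at 643, 626, 539, 644 and 636 CPM at 6 months, without overlap (-0.22, adjusted p = 0.225). C1ra was at 272, 249, 250, 245 and 249 CPM and then at 230, 228, 172, 211 and 214 CPM, also without overlap (-0.26, adjusted p = 0.185). These 2 were the members whose groups did not overlap in Rosa26 livers (1.81% of all genes lower). In HIRA livers they were Mbl2 and F10 (0.691%), and F10 was at 723, 655, 651, 698 and 738 CPM at 3 weeks and 561, 649, 512, 618 and 544 CPM at 6 months (-0.26, adjusted p = 0.469).

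The spread within groups set how small a shift could pass. The pooled SD within groups was 0.09 to 0.74 on the log2 scale with a median of 0.19, and it was under 0.2 for 21 of 41 genes. It was lowest for F12 and F2 and highest for C8a, C6 and C8b.

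Several of the 41 varied together with the acute phase genes. An index was taken as the mean, over 20 acute phase genes outside the 41, of log2 CPM less the gene's mean. It was 1.69 in Rosa26 liver 2 at 3 weeks, and 1.10, 1.12 and 0.80 in Rosa26 livers 2, 4 and 5 at 6 months. Across the 20 libraries its Pearson coefficient was over 0.5 for 19 of 41 genes, 18 of 41 after group means were removed and 16 of 41 without Rosa26 liver 2 at 3 weeks. Over all genes but those of the index, 5.78%, 3.25% and 5.48% of the 12883 at 1 CPM or more passed that mark in the same 3 settings, and 12.8%, 7.98% and 11.5% of the 1353 at 100 CPM or more, 37 of the 41 genes among them. The highest were C4b at 0.83, Cpb2 at 0.82, Fgg at 0.78 and Fgb at 0.76, and Serpinf2 was at 0.75, Mbl1 at 0.71 and C2 at 0.70. Without Rosa26 liver 2 at 3 weeks the same genes, in that order, were at 0.76, 0.75, 0.65, 0.61, 0.65, 0.61 and 0.59. By rank (Spearman) over the 20 libraries they were lower, at 0.57, 0.70, 0.47, 0.42, 0.48, 0.53 and 0.36. The Pearson values thus rest in part on the libraries with the highest index. Serpinc1 was at 0.03 and C6 at -0.24. For C8g the value was 0.46, and 0.07 after group means were removed. These points share libraries and scaling, and the part of the acute phase genes in the guide comparisons was not tested.

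**Figure D5:**
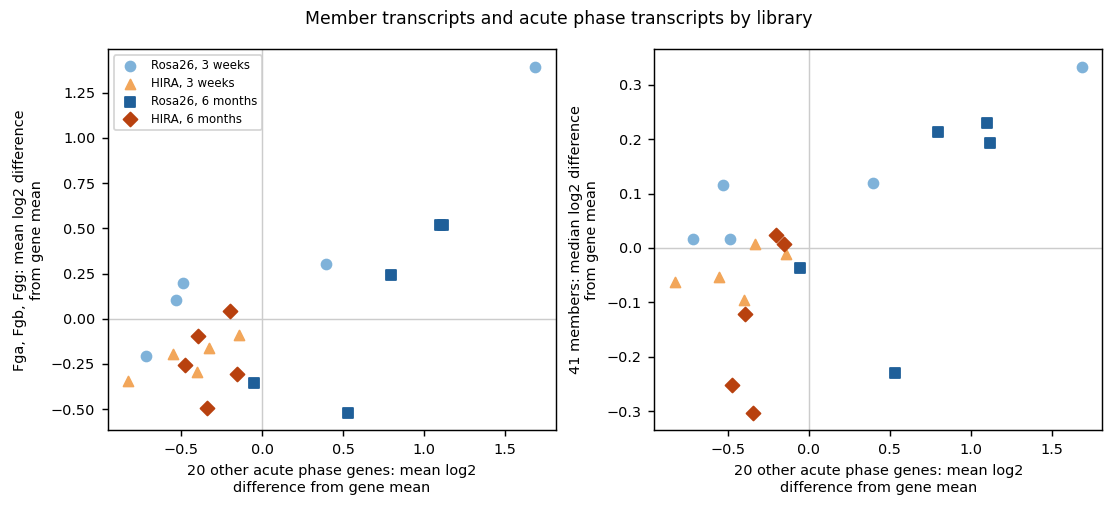
Each point is a library, with the acute phase index (mean log2 difference from the gene means over 20 genes outside the 41) on the x axis and, on the y axes, the mean log2 difference of the 3 fibrinogen genes (left) and the median log2 difference of the 41 genes (right). Rosa26 liver 2 at 3 weeks lies at the upper right at 1.69, and the HIRA livers lie below 0 on the x axis.

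The 20 acute phase genes were also compared between the guides. On average 7 of 20 passed and all were lower, among them Orm3 (-2.31 ± 0.39, adjusted p = 0.00287), Crp (-0.51, 0.00940), Apcs (-1.08, 0.0147) and Lcn2 (-2.61, 0.0172). At 6 months 1 passed, Orm3 (-2.62, 0.0238), and at 3 weeks 0 passed. The median over the 20 was -0.69 at 3 weeks, -0.60 at 6 months and -0.71 on average. Without Rosa26 liver 2 at 3 weeks, 0, 6 and 5 passed at 3 weeks, at 6 months and on average, all lower, with medians of -0.23, -0.60 and -0.48. The averages of Orm3, Crp, Apcs and Lcn2 were then -1.93, -0.44, -0.75 and -1.52. Without HIRA liver 5 at 6 months, 0, 2 and 9 passed, all lower. With all 20 libraries, 0.612% of all genes passed downward at 6 months and 1.37% on average. The shares of all genes in the fits without a library are not given here.

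Other genes of the pathways were also compared, beside 1.37% of all genes that passed downward on average. Of 23 further coagulation and fibrinolysis genes 22 were tested, and 0, 0 and 3 passed at 3 weeks, at 6 months and on average. The 3 were lower: Tfpi2 (a protease inhibitor; -0.31, adjusted p = 0.0359), Mcfd2 (a partner of the receptor that carries factors V and VIII out of the endoplasmic reticulum; -0.18, 0.0430) and Serpina10 (the inhibitor that works with protein Z; -0.65, 0.0441). Of 33 further complement genes 0, 0 and 1 passed, Cpn2 (the carrier chain of carboxypeptidase N; -0.41, 0.00995), which was lower. Without Rosa26 liver 2 at 3 weeks, 0, 1 and 1 of the coagulation genes and 0, 0 and 1 of the complement genes passed. Without HIRA liver 5 at 6 months these counts were 0, 0 and 3 and 0, 1 and 3, all lower except the 1 complement gene at 6 months. For these fits, too, the share of all genes is not given here. Of 15 liver transcription factors 0 passed in edgeR at either time or on average, and at an unadjusted p under 0.05 there were 3 lower at 3 weeks, 2 higher and 1 lower at 6 months, and 3 higher and 1 lower on average.

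Markers of cells were also read. Of the 9 hepatocyte markers 0 passed, with medians of 0.04, 0.16 and -0.03 at 3 weeks, at 6 months and on average. Of these 9, 4, 3 and 5 had fold changes below 0, and the range was -0.51 to 0.28, -0.33 to 0.35 and -0.32 to 0.31. No list of markers of Kupffer cells, sinusoidal endothelium, stellate cells, cholangiocytes, lymphocytes, neutrophils, platelets or erythroid cells held a gene that passed. Ly6g, a defining marker of neutrophils, was near 0 in all groups, with 6 counts in Rosa26 liver 3 and 0 in the other 9 livers at 3 weeks, and at 6 months 2 counts in Rosa26 liver 3, 1 count each in HIRA livers 1, 2 and 3 and 0 in the others. No other tested marker of these cells was at 0 in a whole group. At 6 months 8 of 8 sinusoidal markers had fold changes above 0, beside 54.2% of genes at 1 CPM or more. At an unadjusted p under 0.05, 4 of them were higher (8.68% of all genes). Their sums were 167 to 277 CPM in Rosa26 and 206 to 323 CPM in HIRA livers. The 8 stellate and 8 lymphocyte markers were above 0 at both times (47.4% and 54.2% of genes at 1 CPM or more). Of these, 0 and 2 stellate and 2 and 1 lymphocyte markers had an unadjusted p under 0.05 at 3 weeks and 6 months. Stellate sums were 244 to 394 CPM in Rosa26 and 260 to 358 CPM in HIRA livers at 3 weeks, and 199 to 355 and 210 to 855 CPM at 6 months, where 855 CPM was HIRA liver 3 and the other 4 were at 210 to 379 CPM. Lymphocyte sums were 6.79 to 12.7 and 12.1 to 19.6 CPM at 3 weeks and 7.83 to 29.3 and 7.83 to 36.2 CPM at 6 months. At 3 weeks 6 of 6 neutrophil markers were below 0 (52.6% of genes at 1 CPM or more), 5 of them at an unadjusted p under 0.05 (4.50% of all genes lower). Their sums were 57.4 CPM in Rosa26 liver 3, 6.65 to 14.3 CPM in the other Rosa26 livers and 4.91 to 10.2 CPM in HIRA livers. Rosa26 liver 3 at 6 months, lowest for 9 of the 41 genes, had the highest Kupffer cell sum at 1297 CPM. The part of other cells in the results was not tested.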

How the data were processed

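The authors trimmed reads with Trim Galore 0.4.4, aligned them to mm10 with STAR 2.5.3a and deposited raw counts per gene. The study's methods name HOMER for counting and the processing notes name HTSeq, and use of strand is not given in the sources used here. The authors also deposited FPKM, credited here to Cufflinks as the processing notes list it. Groups and replicate numbers come from the sample titles. Here, genes with fewer than 10 counts in total were left out, as in the study (22854 identifiers had no count and 9700 had 1 to 9). All 20 libraries were fitted together in edgeR 4.0.16 (R 4.3.3; glmQLFit and glmQLFTest, TMM, 4 group means), with Benjamini-Hochberg adjustment over 22867 genes, 16 residual degrees of freedom and a threshold of 0.05. The study itself used DESeq2 1.30.0 with an added absolute log2 fold change over 1.

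Alternatives were DESeq2 1.42.0, other size factors, other filters, the libraries of a contrast alone, a replicate block, limma 3.58.1 on log2(FPKM + 1) and log2(FPKM + 0.1), and each library left out in turn. Scripts were tested on simulated data. The 41 genes, the lists and the tests were chosen with earlier results of these data known. All 41 genes may be named, and from each other pathway list up to 4 genes per comparison with the smallest adjusted p. Ly6g and the sex-linked genes are outside this rule and were named after their values were seen. The 20 libraries held 19916430 to 24079736 counts, and no pair within a group was identical or agreed within sampling noise (40 pairs, lowest chi-square per degree of freedom 15.1). The titles do not say whether mice with equal replicate numbers were linked, and the main fit did not pair them. Of 30 pairs of same-numbered libraries 14 had a correlation of deviations over 0.1 (range -0.31 to 0.33, median 0.08). Coordinates and exon lengths are from GENCODE M21 on GRCm38, the assembly of mm10, which matched 98.7% of the identifiers. The tests use polyA RNA and do not measure protein in plasma.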

Additional observations from a re-analysis of the deposited data

Results flagged for a closer look

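In 164 groups of 5 libraries (41 genes in 4 groups), 11 held a library whose gap to the nearest of the others exceeded Dixon's 95% critical value. Chance flags about 1 in 20 groups. The values are listed without an explanation. All values are log2 CPM.

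HIRA liver 5 at 6 months, the library with male sex-linked transcripts, was highest for C8a at 9.47 (the other 4 were 7.31 to 7.39) and for Klkb1 at 7.93 (7.53 to 7.64). Rosa26 liver 2 at 3 weeks, the library with the highest acute phase transcripts, was highest for Cpb2 at 9.02 (8.26 to 8.46). Rosa26 liver 3 at 6 months, with the highest Kupffer cell markers, was lowest for F12 at 9.08 (9.29 to 9.33) and for Serpinc1 at 11.05 (11.34 to 11.41). Rosa26 liver 1 at 3 weeks was highest for Proc at 9.47 (9.04 to 9.11) and for C1ra at 8.09 (7.94 to 7.97). F11 was lowest in HIRA liver 1 at 6 months at 4.36 (5.29 to 5.46). Pros1 was highest in HIRA liver 3 at 6 months at 6.02 (5.59 to 5.71). Serpind1 was highest in HIRA liver 5 at 3 weeks at 9.45 (9.16 to 9.24). Masp2 was lowest in Rosa26 liver 3 at 3 weeks at 7.22 (7.33 to 7.37).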

How the results depend on the processing

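The number of the 41 genes that passed depended on the tool and on single libraries, while the medians kept their sign between HIRA and Rosa26 livers under every alternative run (-0.20 to -0.11 at 3 weeks, -0.29 to -0.18 at 6 months, -0.23 to -0.13 on average). The causes of the changes below were not tested. A fit that calls more genes in all can also call more of the 41, and except for DESeq2 the share of all genes called in each alternative is not given here. At 3 weeks, 0 genes passed, against 2 with DESeq2, 1 with total counts only, 1 with the libraries of that time alone and 0 to 1 with 1 library left out. At 6 months 3 passed, against 8 with DESeq2, 0 with the libraries of that time alone and 0 to 3 with 1 library left out (0 without Rosa26 liver 1 or 4 of that time, 1 without Rosa26 liver 2 or 3 or HIRA liver 1 or 3). On average 4 passed, against 14 with DESeq2, 7 with filterByExpr, 7 without Rosa26 liver 2 at 3 weeks and HIRA liver 5 at 6 months together (an alternative chosen after seeing the data), and 3 to 7 with 1 library left out (7 without HIRA liver 2 or 5 of 6 months). With the replicate block, 7 passed on average and 3 at 6 months, where F7 passed (adjusted p = 0.0367) and C6 did not (0.0557). Whether equal replicate numbers share more than a name is not known, and 10 of the 30 pairs correlated best with their own number. Over time, DESeq2 called 2 genes in Rosa26 livers and 1 in HIRA livers against 0 for edgeR (3.22% and 0.885% of the genes it adjusted), and 1, Mbl2, passed in Rosa26 livers without both libraries. With the 10 most abundant other genes taken out of the total, the share of the 41 genes was 8.01% in Rosa26 and 6.93% in HIRA livers at 3 weeks, 7.44% in Rosa26 and 6.53% in HIRA livers at 6 months, since the denominator is smaller. Mbl1 and Serpinf2 passed on average in 30 of 30 alternatives, C8g in 29 and C2 in 28. Of 1926 values of single genes over 63 results, 1845 kept direction and side of the threshold, 28 no longer passed, 53 newly passed and 0 called values reversed. The fold change kept its sign in all alternatives for 34, 32 and 32 of 41 genes at 3 weeks, at 6 months and on average. With 5 mice a group, the SE of a fold change at a single time had a median of 0.13, which limits what could pass.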
